A study of Mus musculus with 6 samples.

Results

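The 7 lineage regulators described here, Tbx21, Eomes, Runx3, Ahr, Il12rb1, Il12rb2 and Il23r, are genes that steer CD4 T cells towards the Th1 or Th17 fate or let them sense the cytokines that do so. They were chosen by name, and for each symbol the transcript row with the most reads over the 6 libraries was kept, which gave 7 of the 23992 gene symbols in the table. Of these, 6 passed the filter on low counts. Eomes did not, and its reads are given without a test. RNA was sequenced from mouse regulatory T cells (Treg cells), CD4 T cells that express Foxp3 and restrain other immune cells. The series title asks whether the cytokine TSLP acts on Treg cells and keeps their identity.

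The KO group holds 3 libraries, from mice in which a floxed allele of Crlf2, the TSLP-specific receptor subunit, was combined with a Cre recombinase and yellow fluorescent protein expressed from the Foxp3 locus (Foxp3YFP-Cre/Y with Crlf2fl/fl, per the protocols). The WT group holds 3 libraries from mice with the same Foxp3YFP-Cre/Y allele and no floxed Crlf2 allele in their name. Both groups therefore carry the Cre allele, are male by the allele notation and are CD45.2. The sources used here give no ages and do not say whether each library is 1 animal, so the p-values measure the spread between these samples, which may be technical. The cells were sorted as live, CD4-positive and YFP-positive, and the labels name pooled spleen and lymph node, but the count table is named for lung. Lung epithelial markers had reads in every library, at levels given below, and the tissue of origin was not tested. Groups follow the titles and genotype tags, although the descriptions pair each library with the opposite strain name. Crlf2 had 93, 84 and 68 reads in KO replicates 1 to 3, against 694, 213 and 1111 reads in WT replicates 1 to 3, which goes with the titles (log2 fold change -4.16, SE 0.36, edgeR adjusted p = 0.00468).

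T-bet, encoded by Tbx21, is the T-box transcription factor that sets the Th1 programme, and Eomes encodes its close relative, best known from NK cells and CD8 T cells. Runx3 cooperates with T-bet in Th1 cells, and Ahr encodes the aryl hydrocarbon receptor, a ligand-activated factor used by Th17 cells and by intestinal Treg cells. The receptors for IL-12 and IL-23 share the chain encoded by Il12rb1. It pairs with the product of Il12rb2 to sense IL-12, which signals through STAT4 in Th1 cells, and with the product of Il23r to sense IL-23, which signals through STAT3 in Th17 cells. Treg cells can switch on Tbx21 in inflamed tissue.

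The members lie on 6 chromosomes in mm10, with positions from GENCODE M21: Tbx21 on chromosome 11 (97098071 to 97115331, minus strand), Eomes on 9 (118478212 to 118486132, plus), Runx3 on 4 (135120652 to 135177990, plus), Ahr on 12 (35497974 to 35535038, minus) and Il12rb1 on 8 (70808449 to 70821424, plus). Il12rb2 (67291318 to 67376188) and Il23r (67422932 to 67491855) both lie on the minus strand of chromosome 6, 46.7 kb apart, with Gm8574, Gm44208, Gm4761 and Gm44083 between them. All 7 are protein coding. Gene bodies of Eomes, Runx3, Ahr and Il12rb2 each overlap 1 gene on the opposite strand, and reads of the 2 strands cannot be separated without a known strand setting. For Il12rb2 that gene is Serbp1, which is protein coding.

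Promoter windows are shown for the T-box pair and for the receptor pair on chromosome 6, because all 4 genes had their highest level in WT replicate 3. RefSeq (GRCm38.p6, the assembly behind mm10) gave a window of 250 bases before and 50 bases from the annotated start for 5 of the 7 members. Ahr and Il12rb1 had no entry. Capitals mark matches, on either strand, to 4 motifs: the T-box half-site AGGTGTGA, the Runx site TGTGGT, the AHR core GCGTG and the STAT site TTCNNNGAA.
Tbx21, chr11:97115282-97115581, minus strand: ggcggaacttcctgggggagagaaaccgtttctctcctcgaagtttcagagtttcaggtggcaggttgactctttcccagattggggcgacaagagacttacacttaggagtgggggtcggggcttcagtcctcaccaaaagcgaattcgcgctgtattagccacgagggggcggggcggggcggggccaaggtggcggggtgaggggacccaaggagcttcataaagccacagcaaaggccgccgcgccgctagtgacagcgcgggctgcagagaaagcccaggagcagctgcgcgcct
Eomes, chr9:118477939-118478238, plus strand: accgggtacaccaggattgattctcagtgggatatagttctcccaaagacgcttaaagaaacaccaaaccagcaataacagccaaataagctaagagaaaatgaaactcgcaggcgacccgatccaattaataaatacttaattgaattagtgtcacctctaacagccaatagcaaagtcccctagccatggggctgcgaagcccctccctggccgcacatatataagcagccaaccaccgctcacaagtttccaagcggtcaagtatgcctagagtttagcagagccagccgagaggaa
Il12rb2, chr6:67376139-67376438, minus strand: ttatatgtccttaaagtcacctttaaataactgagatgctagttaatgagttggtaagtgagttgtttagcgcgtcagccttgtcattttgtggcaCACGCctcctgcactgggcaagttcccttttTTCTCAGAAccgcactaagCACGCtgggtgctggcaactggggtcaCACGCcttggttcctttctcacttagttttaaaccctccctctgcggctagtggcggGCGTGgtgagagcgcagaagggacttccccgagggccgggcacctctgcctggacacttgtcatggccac
Il23r, chr6:67491806-67492105, minus strand: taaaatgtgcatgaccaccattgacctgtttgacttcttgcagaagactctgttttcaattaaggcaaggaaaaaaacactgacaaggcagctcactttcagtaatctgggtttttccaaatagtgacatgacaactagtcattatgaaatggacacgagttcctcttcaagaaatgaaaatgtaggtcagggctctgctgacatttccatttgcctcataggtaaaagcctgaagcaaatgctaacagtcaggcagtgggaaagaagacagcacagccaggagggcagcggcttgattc

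Of these 4 windows only that of Il12rb2 held a match, with 4 AHR cores and 1 STAT site, none of which overlap. Among all 32851 RefSeq promoter windows of 300 bases, 32.4% held an AHR core, 8.30% a STAT site, 16.8% a Runx site and 1.28% a T-box half-site. One of 2 Runx3 windows held 2 Runx sites. These are matches of letters and not shown to be bound sites.

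Before any comparison, WT replicate 3 stood apart from the other 5 libraries in several marker sums, and WT replicate 1 in that of lung epithelial markers. Over all tested genes, log2 levels of WT replicate 3 correlated with those of the other libraries at r = 0.874 to 0.905. For WT replicate 1 this was r = 0.873 to 0.903. Library totals, with 1 row per symbol, ran from 9649591 to 18352409 counts in KO and from 1439738 (WT replicate 2) to 12180554 in WT. A count of 0 allows up to 3 counts, or 2.05 CPM for WT replicate 2 and 0.157 to 0.401 CPM for the others (CPM being reads scaled to the TMM-adjusted library size). All 9 Treg markers had reads in every library. Their summed level was 3735 to 4378 CPM in KO, against 4119, 3912 and 2231 CPM in WT replicates 1 to 3, and Foxp3 was at 386 to 489 CPM in KO, against 474, 437 and 200.1 CPM in WT. All 11 NK and cytotoxic markers had reads in each KO library and in WT replicates 2 and 3, while Klre1, Klra8 and Klra9 were at 0 in WT replicate 1. Their sum was 112 to 135 CPM in KO, against 55.2, 113 and 1458 CPM in WT. Tyrobp (60.3 to 64.7 CPM) and Fcer1g (40.3 to 57.2 CPM) were the highest of these markers in KO, where Ncr1 was at 0.157 to 0.487 CPM. In WT replicate 3 these genes were at 551, 338 and 39.6 CPM. CD8 T cell markers summed to 7.89 to 23.1 CPM in KO, against 16.7, 9.58 and 38.5 CPM in WT. B cell markers summed to 17.2 to 30.0 CPM in KO, against 25.8, 21.2 and 405 CPM in WT. Macrophage and monocyte markers summed to 2408 to 2655 CPM in KO, against 398, 756 and 8117 CPM in WT. Erythroid markers summed to 1272 to 1834 CPM in KO, against 1243, 4608 and 113793 CPM in WT. Lung epithelial markers summed to 2294 to 18132 CPM in KO, against 80290, 16686 and 24759 CPM in WT. The part of any of these in the results below was not tested, and in bulk RNA fewer cells of a type and less RNA per cell cannot be told apart.

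**Figure D1:**
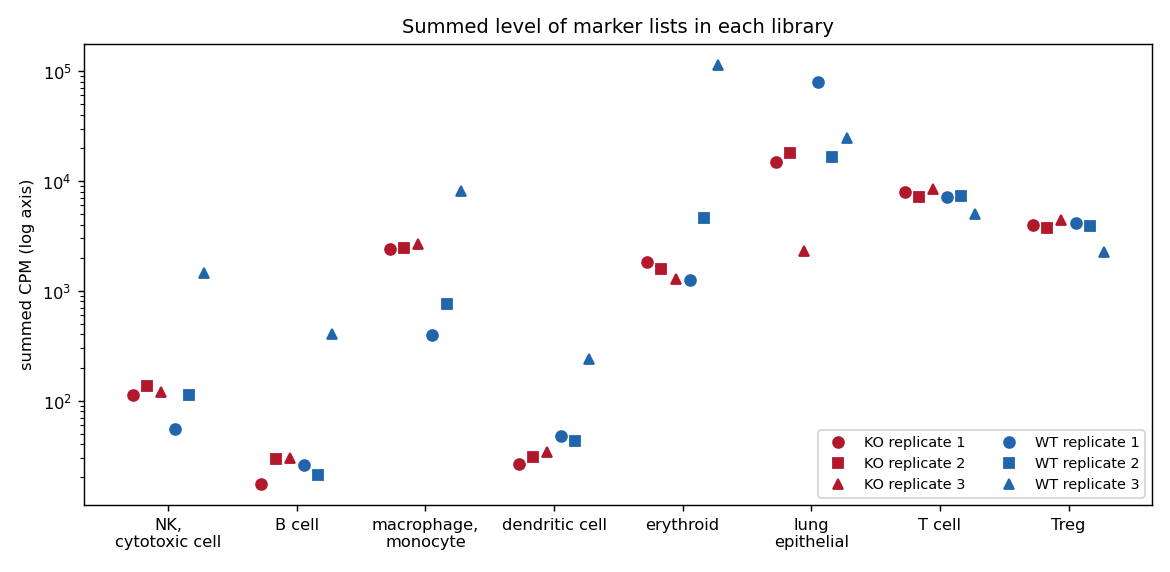
Summed CPM (log axis) of marker lists in each library, KO in red and WT in blue, with circle, square and triangle for replicates 1, 2 and 3. WT replicate 3 is highest for NK, B cell, macrophage, dendritic and erythroid markers (1458, 405, 8117, 238 and 113793 CPM) and lowest for T cell and Treg markers (5025 and 2231 CPM).

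None of the 6 tested members passed the threshold of an adjusted p under 0.05 between KO and WT by edgeR's quasi-likelihood test, which called 221 of 12719 genes (1.74%; 0.755% higher and 0.983% lower in KO). Limma-voom, with and without sample weights, also called 0. Unadjusted p-values were under 0.05 for 3 members and for 2017 genes. DESeq2 called 3 members, Ahr, Il12rb1 and Il12rb2, all with lower values in KO, where it called 863 genes (6.79%; 3.90% lower in KO). These 3 were also the members whose KO libraries all lay below all WT libraries, an arrangement that 11.5% of tested genes had. No member had all KO libraries above all WT libraries, as 10.4% of genes did; the groups did not overlap in 22.0% of genes. Il12rb2 passed the filter on low counts only through its WT libraries. The counts above and the members' medians below include it, so they are a description and no support for a difference. The median log2 fold change (KO minus WT throughout) of the 6 members was -0.69, and that of all tested genes -0.04. Without WT replicate 3 these medians were -0.25 and -0.01, and edgeR called Il12rb1 alone of the 6, among 518 of 12932 genes (4.01%; 2.13% lower and 1.87% higher in KO).

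**Figure D2:**
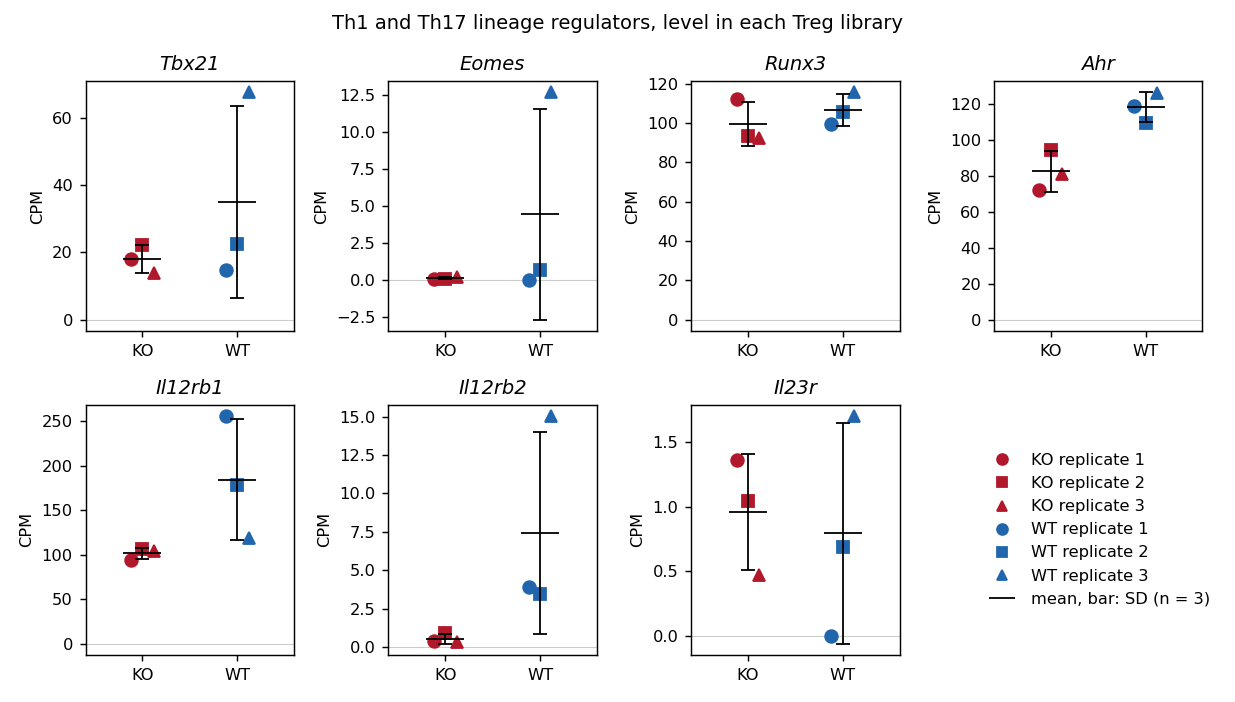
Level of each regulator in CPM in the 3 KO libraries (red) and the 3 WT libraries (blue); black lines give the mean and bars the SD (n = 3 each). Ahr, Il12rb1 and Il12rb2 show no overlap between groups, and the WT means of Tbx21, Eomes and Il12rb2 are raised by WT replicate 3 (67.4, 12.7 and 15.04 CPM).

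Among the transcription factors, Tbx21 had 185, 279 and 264 reads in KO, against 111, 33 and 713 reads in WT. Its level was 18.0, 22.3 and 13.8 CPM in KO, against 14.8, 22.6 and 67.4 CPM in WT. The KO range thus lay close to WT replicates 1 and 2, and WT replicate 3 alone was high. NK, CD8 T cell, B cell, macrophage, dendritic and erythroid marker sums were also highest in that library. Their part in the Tbx21 reads was not tested. The log2 fold change of Tbx21 was -0.99 (SE 0.53, edgeR adjusted p = 0.426). Without WT replicate 3 it was 0.00 (SE 0.34, edgeR adjusted p = 0.997), and without WT replicate 1 it was -1.38 (SE 0.43, edgeR adjusted p = 0.173).

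Eomes had 1, 1 and 4 reads in KO, against 0, 1 and 134 reads in WT, so that 95.04% of its 141 reads came from WT replicate 3. In the other 5 libraries it was at or near the limit of detection, at 0.0800 to 0.209 CPM in KO and 0 and 0.684 CPM in WT replicates 1 and 2, against 12.7 CPM in WT replicate 3. The NK, CD8 T cell, B cell, macrophage, dendritic and erythroid marker sums were highest in the same library, and their part in the Eomes reads was not tested. The second deposited Eomes transcript row had the same counts except for 1 read fewer in WT replicate 3. No fold change is given, since the WT mean rests on that library (0.129 ± 0.0699 CPM for KO and 4.45 ± 7.13 CPM for WT, SD, n = 3 each).

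Runx3 varied least of the tested members over the 6 libraries. It was at 112, 93.6 and 92.1 CPM in KO, against 99.4, 105 and 116 CPM in WT. The groups overlapped, and the log2 difference came to -0.11 (SE 0.14, edgeR adjusted p = 0.77).

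Ahr was at 72.1, 94.5 and 81.4 CPM in KO, against 119, 109 and 126 CPM in WT. Every KO library lay below every WT library, WT replicate 3 included, and both groups were tight (82.6 ± 11.3 CPM over the KO libraries, against 118 ± 8.30 CPM over the WT ones, SD, n = 3 each). The log2 difference came to -0.52 (SE 0.15, unadjusted p = 0.00729, edgeR adjusted p = 0.132). It ranged from -0.42 to -0.62 when single libraries were left out, with no call by edgeR, and DESeq2's adjusted p was 0.046.

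The log2 ratio of Eomes to Tbx21 per transcript length, which does not depend on library scaling, was -7.49, -8.08 and -6.42 in KO, against -8.34, -5.02 and -2.95 in WT. The groups overlapped and WT replicate 3 was highest. The value of WT replicate 1, which had no Eomes read, is set by the 0.5 added to each count, and KO replicates 1 and 2 had 1 Eomes read each, so the order of the low values and the overlap they make cannot be read. The mean was -7.33 ± 0.84 in KO and -5.44 ± 2.72 in WT (SD, n = 3 each; difference -1.89, exact two-sided permutation p = 0.4, 0.6 after Benjamini-Hochberg adjustment over 3 ratios). The difference was -0.65 without WT replicate 3 (exact permutation p = 0.7) and -3.35 without WT replicate 1 (exact permutation p = 0.1).

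Among the receptor chains, the shared chain Il12rb1 had the highest level per transcript length of the members. It had 971, 1329 and 1994 reads in KO, against 1914, 261 and 1260 reads in WT, or 94.5, 106 and 104 CPM in KO, against 256, 179 and 119 CPM in WT. The KO libraries lay close together and below all WT libraries, which were spread, with WT replicate 3 nearest to KO. The log2 difference came to -0.86 (SE 0.25, unadjusted p = 0.00846, edgeR adjusted p = 0.142). It was called lower without WT replicate 3 (-1.10, SE 0.17, edgeR adjusted p = 0.0112), and also when libraries were scaled to 13 pan-T cell genes (-1.10, SE 0.21, edgeR adjusted p = 0.0406). That scaling called 1.75% of genes (1.51% lower in KO) and moved the median of all genes to -0.35. Without WT replicate 1, the highest library, the log2 difference came to -0.53 (SE 0.19, edgeR adjusted p = 0.231).

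Il12rb2, the chain specific for the IL-12 receptor, was close to the detection limit in KO. It had 4, 11 and 6 reads in KO, against 29, 5 and 159 reads in WT. Scaled, this was 0.389, 0.880 and 0.313 CPM in KO, against 3.88, 3.42 and 15.04 CPM in WT. All WT libraries lay above all KO libraries, and 74.3% of all reads of the gene came from WT replicate 3. It passed the filter on low counts through WT, the group where it is high: all 3 WT libraries but 1 KO library reached the cut of 0.942 CPM (before TMM scaling), so its fold change and p-values are a description and no support for a difference. Its log2 fold change was -3.85 (SE 0.82, unadjusted p = 0.00135, edgeR adjusted p = 0.0616), and DESeq2's adjusted p was 0.000479. Without WT replicate 3 it was -2.78 (SE 0.88, edgeR adjusted p = 0.13), resting on few reads in WT replicates 1 and 2.

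Il23r, the chain specific for the IL-23 receptor, had 14, 13 and 9 reads in KO, against 0, 1 and 18 reads in WT. This was 1.36, 1.04 and 0.470 CPM in KO, against 0, 0.684 and 1.70 CPM in WT. The groups overlapped, and the log2 difference came to 0.16 (SE 1.17, edgeR adjusted p = 0.967). It was 2.58 (SE 1.80, edgeR adjusted p = 0.492) without WT replicate 3 and -0.49 without WT replicate 1, so that at this depth no direction could be given.

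The log2 ratios of the alternative partners of Il12rb1 did not overlap between the groups. Il12rb2 passed the filter on low counts only through WT, so the ratio is a description and no support for a difference. Among single tested genes, the groups did not overlap in CPM in 22.0%, and the share over ratios of other gene pairs was not computed. The log2 ratio of Il12rb2 to Il23r per transcript length was -1.93, -0.48 and -0.79 in KO, against 5.64, 1.63 and 2.86 in WT. By these values Il23r lay above Il12rb2 in every KO library and below it in every WT library. Reads of Il23r against Il12rb2 were 13 against 11 in KO replicate 2 and 9 against 6 in KO replicate 3. They were 1 against 5 in WT replicate 2, so the order within these libraries cannot be read with certainty. The difference was -4.44, with an exact two-sided permutation p = 0.1, the smallest that 3 against 3 libraries allow, and p = 0.3 after Benjamini-Hochberg adjustment over the 3 ratios tested. The ratios rest on few reads: 0.5 was added to each count, WT replicate 1 had no Il23r read, and adding 1 instead gave -3.96. The difference stayed between -3.31 and -5.32 when single libraries were left out, and was -4.70 without WT replicate 3.

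**Figure D3:**
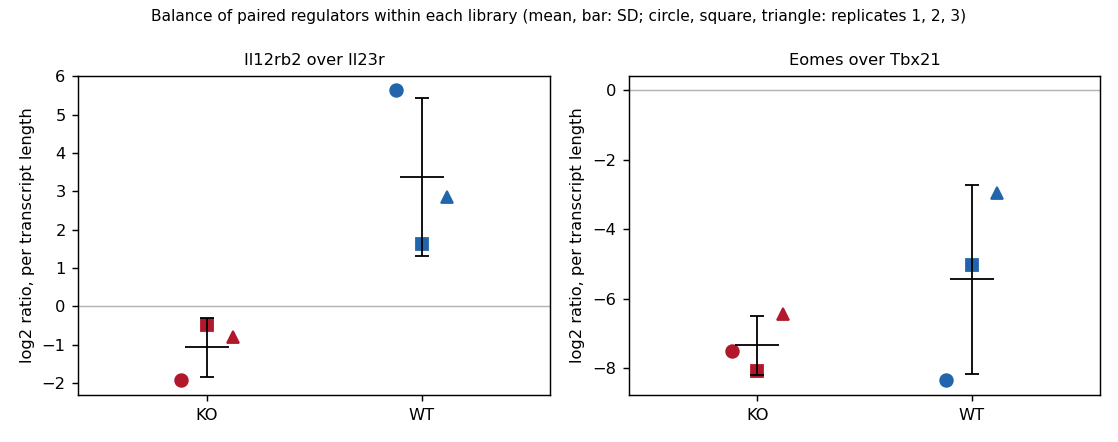
Log2 ratio of each pair of regulators within a library, per transcript length, for 3 KO (red) and 3 WT (blue) libraries; black lines are means and bars SD. Il12rb2 over Il23r lies below 0 in the KO libraries (-1.93 to -0.48) and above 0 in the WT libraries (1.63 to 5.64). Eomes over Tbx21 is highest in WT replicate 3 (-2.95), and its lowest value, in WT replicate 1, rests on 0 Eomes reads.

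**Figure D4:**
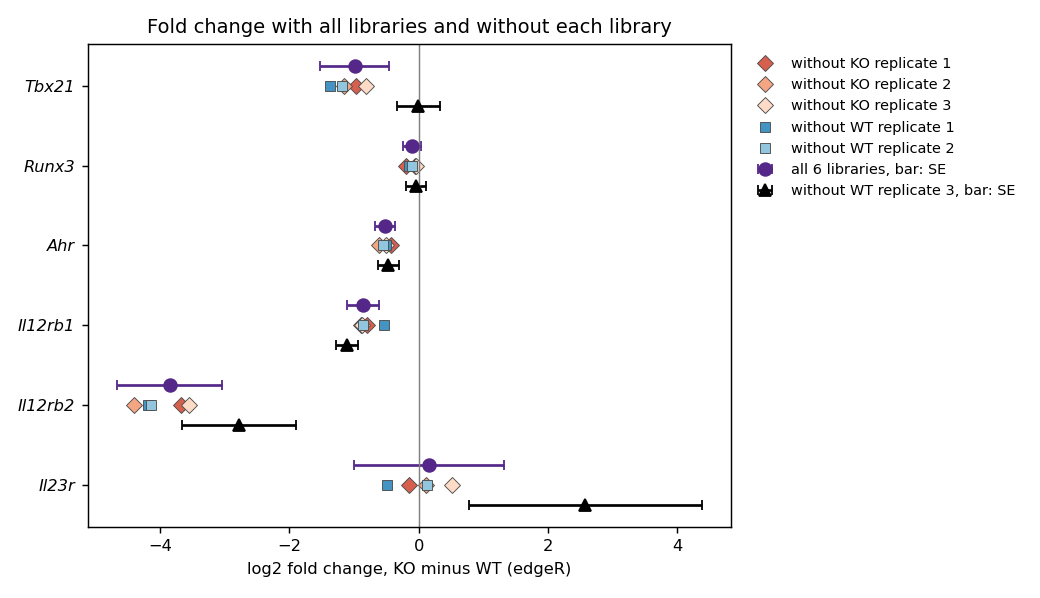
Log2 fold change, KO minus WT, of the 6 tested regulators by edgeR with all libraries (purple, bar SE), without each of 5 libraries in turn (small symbols) and without WT replicate 3 (black triangle, bar SE). Without that library Tbx21 is at 0.00 (-0.99 with it) and Il23r at 2.58 (0.16 with it), while Il12rb1 and Ahr stay below 0 in every fit.

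Compared per transcript length, the members fell into abundant and scarce genes in both groups. In KO the order was Il12rb1 (35.4 ± 2.19 CPM per kb), Runx3 (25.5 ± 2.89), Ahr (15.04 ± 2.05), Tbx21 (7.07 ± 1.68), Il23r (0.385 ± 0.182), Il12rb2 (0.179 ± 0.104) and Eomes (0.0347 ± 0.0188; SD, n = 3). Of these neighbours only Il23r and Il12rb2 overlapped in range. In WT the order of means was Il12rb1 (64.3 ± 23.9 CPM per kb), Runx3 (27.4 ± 2.10), Ahr (21.5 ± 1.51), Tbx21 (13.7 ± 11.1), Il12rb2 (2.53 ± 2.23), Eomes (1.20 ± 1.92) and Il23r (0.320 ± 0.344; SD, n = 3). Ranges overlapped there between Ahr and Tbx21, between Il12rb2 and Eomes, and between Eomes and Il23r. Il12rb2 and Il23r thus took opposite places in the order of means, but both rest on few reads and their KO ranges overlapped.

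The genes with the most similar profile over the 6 libraries were found by the smallest root mean square difference of centred log2 CPM, with no test. For Tbx21 they were Arrdc3 (0.11) and Slc16a3 (0.20), where the median over all genes compared was 0.84. For Il12rb1 they were Epsti1 and Vill (0.10 each, median 0.62), for Ahr Rpl31 (0.02) and Trex1 (0.07, median 0.46), and for Runx3 Ube2g2 (0.03) and Snrpc (0.04, median 0.37). For Il12rb2 they were Ly6c2 (0.20) and Fam25c (0.36, median 1.77), and for Il23r Mertk (0.20) and Tgfb1i1 (0.29, median 1.15).

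Genes around the members in 5 pathway lists were called in both directions. Of 60 tested genes, each counted once, edgeR called 7 (11.7%), 3 higher and 4 lower in KO. Over all tested genes it called 1.74% (0.755% higher and 0.983% lower in KO). The lists were chosen with earlier results of these data known, so the share of list genes called is not independent evidence.

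In the Th1 list, 2 of 19 tested genes were called, 1 higher and 1 lower in KO. The median log2 fold change was -0.31, against -0.04 over all tested genes. Cxcr6, a chemokine receptor gene of tissue T cells, was higher at 288 ± 41.3 CPM over the KO libraries, against 92.2 ± 32.8 CPM over the WT ones (SD, n = 3 each), a log2 fold change of 1.67 with SE 0.24 (edgeR adjusted p = 0.0213). Without WT replicate 3, 6 of the 19 were called, in a fit where calls over all genes also numbered more (4.01%, against 1.74% with all libraries). The 4 that joined were Irf1 with lower values in KO, and Il27ra, Nkg7 and Zeb2 with higher values. Zeb2 was at 31.3, 55.3 and 44.7 CPM in KO, against 7.62, 11.6 and 98.7 CPM in WT. Like the macrophage, NK and erythroid marker sums it was highest in WT replicate 3 and lowest in WT replicate 1. The dendritic, B cell and CD8 T cell marker sums were also highest in WT replicate 3, but lowest in KO replicate 1. The part of any of those cells was not tested. Ifng, chosen after its values were seen, had overlapping groups (3.71 to 8.24 CPM in KO, against 2.81, 8.21 and 13.5 CPM in WT).

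In the Th17 list, 2 of 17 tested genes were called and the median was -0.32. Over all tested genes 1.74% were called and the median was -0.04. Il6st, which encodes the gp130 chain of the IL-6 receptor, was lower at 51.7 ± 10.4 CPM over the KO libraries, against 123 ± 18.4 CPM over the WT ones (SD, n = 3 each), a log2 fold change of -1.26 with SE 0.19 (edgeR adjusted p = 0.0246). Ramp1, a subunit of the receptor for the neuropeptide CGRP, was higher at 242 ± 53.9 CPM over the KO libraries, against 98.5 ± 22.9 CPM over the WT ones (log2 fold change 1.29, SE 0.22, edgeR adjusted p = 0.0336). Il17f, Il21, Il22 and Ccl20 did not pass the filter on low counts.

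Of 10 tested AHR partners and targets, edgeR called 1, against 1.74% of all tested genes. That gene was Arnt2, which encodes a dimerisation partner of the family that AHR belongs to. It was at 63.9 ± 10.9 CPM over the KO libraries, against 17.9 ± 5.25 CPM over the WT ones (SD, n = 3 each), a log2 fold change of 1.87 with SE 0.27 (edgeR adjusted p = 0.0207). Among AHR targets, Cyp1a1 had no read in any library, and Cyp1b1 had 15, 11 and 1 reads in KO, against 0, 0 and 1 reads in WT. Ahrr had 6, 0 and 0 reads in KO, against 0, 1 and 0 reads in WT. None of these passed the filter on low counts, so they were not tested. Tiparp (log2 fold change 0.03, SE 0.38, edgeR adjusted p = 0.982) and Nqo1 (-1.04, SE 1.00, edgeR adjusted p = 0.672) were tested and not called. Gpr15, which guides T cells to the gut, averaged 8.57 ± 2.07 CPM over the KO libraries, against 29.1 ± 15.1 CPM over the WT ones and was called lower without WT replicate 3 (-1.90, SE 0.40, edgeR adjusted p = 0.038), though not with all libraries (edgeR adjusted p = 0.0785).

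None of 9 Runx partners was called by edgeR, against 1.74% of all tested genes. An unadjusted p under 0.05 was seen for 2 of the 9, and for 2017 of all 12719 tested genes. The 2 partners were Gfi1, a transcriptional repressor gene (log2 fold change 0.98, SE 0.32, edgeR adjusted p = 0.183), and Runx2 (0.43, SE 0.16, edgeR adjusted p = 0.242). Of 7 tested genes of IL-12 and IL-23 signalling, the feedback inhibitors Socs1 and Socs3 were called lower, against 0.983% of all tested genes. Socs1 was at 169 to 176 CPM in KO, against 453, 389 and 277 CPM in WT, and Socs3 at 227 to 257 CPM in KO, against 419, 326 and 424 CPM in WT. Their log2 fold changes were -1.12 for Socs1 (SE 0.18, edgeR adjusted p = 0.0268) and -0.68 for Socs3 (SE 0.13, edgeR adjusted p = 0.0497), and Socs3 was not called in 11 of the 16 alternatives. The ligand genes Il12a, Il12b and Il23a had at most 22 reads in any library.

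Calls among the 60 list genes moved with those over the whole table when single libraries were left out. With all libraries 23 of the 60 had an unadjusted p under 0.05, as did 2017 of all genes. With KO replicate 1 left out, edgeR called 0 of the list genes and 4 genes in all (0.0301%), with 19 and 1447 at an unadjusted p under 0.05. Leaving out KO replicate 3 gave 0 and 7 calls (0.0533%), with 19 and 1336 at that level. Leaving out WT replicate 1 gave 0 and 33 calls (0.249%), with 24 and 2229 at that level. There was 1 call among the list genes without WT replicate 2, where 22 genes were called in all (0.165%). There were 4 without KO replicate 2 (124 in all, 0.949%) and 12 without WT replicate 3 (518 in all, 4.01%). Each of Cxcr6, Il6st, Ramp1, Arnt2 and Socs1 therefore missed the threshold without KO replicate 1, without KO replicate 3 and without WT replicate 1, with the sign of its fold change kept. Ramp1 also missed it when libraries were scaled to pan-T genes (log2 fold change 0.93, edgeR adjusted p = 0.169).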

How the data were processed

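Values are unnormalised counts for each RefSeq transcript, deposited as 1 table of 6 libraries that also holds transcript lengths. The build mm10, TopHat2 2.2.1, Bowtie2 2.2.6 and bcl2fastq are named in the submitters' processing notes. The sources used here do not give the counter, its annotation release or its strand setting. Of 31682 rows, 1 per symbol was kept (highest total), because rows of 1 gene can repeat the same reads, as the Eomes rows did. All rows name a gene, and 0 sample columns were left out.

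Low-count genes were removed by filterByExpr (at least 10 counts, 15 in total), libraries were scaled by TMM, and KO was compared with WT in edgeR 4.0.16 (R 4.3.3) by glmQLFit with robust estimation and glmQLFTest, over all genes, with Benjamini-Hochberg adjustment and a threshold of 0.05. SE is the absolute log2 fold change over the square root of F. CPM are normalized to effective library size. Ratios used counts plus 0.5, divided by length, and an exact two-sided permutation test. The edgeR fit, but not the permutation test, was tried on simulated counts. Alternatives were other scalings, DESeq2 1.42.0, limma-voom (limma 3.58.1), no filter, no robust estimation, a replicate block, the longest row and leaving out each library. Limits from counts of 0 cover counting error only. In no pair of libraries did counts agree within sampling noise (lowest chi-square per degree of freedom 12.7).

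The members, lists and tests were chosen with earlier results of these data known. Named are the members, Crlf2 and Foxp3; per pathway list up to 4 called genes of smallest p, or 2 where none was called; and per tested member the 2 most similar profiles. Other named genes were chosen after their values were seen. Results for 2 genes that the rule also names, and 1 of the 3 ratios tested, are not reported here.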

Additional observations from a re-analysis of the deposited data

How the results depend on the processing

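All tested members except Il23r kept the sign of their fold change in all 16 alternatives, although that of Tbx21 was 0.00 without WT replicate 3. The number of members called, 0 by edgeR, was 3 with DESeq2 (Ahr, Il12rb1 and Il12rb2), 1 when scaled to pan-T genes (Il12rb1), and 0 to 1 when single libraries were left out. Genes called over the whole table numbered 221, against 863 with DESeq2, 123 with a replicate block and 4 to 518 with single libraries left out. Pathway list genes called numbered 7, against 15 with DESeq2, 4 with the block and 0 to 12 with single libraries left out. Those settings were applied to the pathway genes after the data were seen.

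The log2 fold change of Il23r was -0.30 when scaled to pan-T genes and -0.49 to 2.58 with single libraries left out. That of Foxp3 was -0.067 without WT replicate 3, against 0.23 with it, and -0.067 to 0.47 with single libraries left out. The cause was not tested. Both ratios kept their sign, at -5.32 to -3.31 for Il12rb2 over Il23r and -3.35 to -0.65 for Eomes over Tbx21. Of the named list genes, Socs3 was not called in 11 of 16 alternatives, Arnt2 in 6, Ramp1 and Socs1 in 5 each, and Cxcr6 and Il6st in 4 each.

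Labels do not say what replicate numbers stand for, and deviations of same-numbered libraries did not correlate (r = 0.0839, -0.147 and -0.0446), so the replicate block pairs numbers only. With the block no member was called, and the edgeR adjusted p was 0.0509 for Cxcr6, 0.0544 for Arnt2 and 0.135 for Socs3. Eomes, Il12rb2 and Il23r are limited by depth, most of all in WT replicate 2.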
